A study of Mus musculus with 2 samples.

Results

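The interferon-inducible GTPases described here were 10 genes chosen by name from the 31053 genes of the count tables: the immunity-related GTPases (IRG) Iigp1, Igtp, Irgm1, Irgm2, Tgtp1 and Tgtp2, and the guanylate-binding proteins (GBP) Gbp2, Gbp3, Gbp5 and Gbp7. All 10 had a row in both tables. Male C57BL/6 mice, 8 to 12 weeks old, each received 100000 cells of GL261, a line of mouse glioma cells, in the brain. They were either WT or heterozygous for CD169-DTR, an allele that puts the receptor for diphtheria toxin (DT) under the control of Siglec1, the gene of CD169. Both groups received DT at 40 ng/g on day -1 and day 4 of tumor injection, so the WT library is a toxin-treated control. Live immune cells, positive for CD45.2 and negative for propidium iodide, were sorted at 10 dpi from 3 pooled mice per group, and each pool gave 1 droplet library. Because the receptor occupies Siglec1 itself, loss of CD169-positive cells and loss of 1 Siglec1 copy cannot be told apart from Siglec1 UMIs alone, and any cell that expressed Siglec1 at the time of the toxin, resident or infiltrating, could have been lost.

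IRG and GBP proteins are large GTPases that are made at low levels until a cell is exposed to interferon and then accumulate strongly. IFN-γ induces them through GAS elements in their promoters and also through ISRE elements, and type I IFN does so mainly through ISRE elements. They are best known for defence inside cells, where GBP and effector IRG proteins coat and break the vacuoles of parasites and bacteria, while Irgm1, Irgm2 and Igtp act as regulators that keep the effectors off the cell's own membranes. Exposure of the cells to interferon was not measured here, so a level of these transcripts in a cell class is not a measure of it.

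Of the 10 genes, 4 GBP genes lie close together on chromosome 3 and 5 IRG genes lie on chromosome 11, in GENCODE M21 on GRCm38. Gbp5 spans chr3:142493978-142522344, Gbp7 chr3:142530342-142550149, Gbp3 chr3:142560026-142573209 and Gbp2 chr3:142620602-142638008, all on the plus strand. Irgm1 (chr11:48861968-48871683), Tgtp1 (chr11:48985327-48994172) and Tgtp2 (chr11:49057194-49064206) are on the minus strand, and Igtp (chr11:58199556-58207591) and Irgm2 (chr11:58199618-58222782) overlap each other on the plus strand. Iigp1 lies apart from both groups. In the last 500 bases of their coding transcripts, 100% of the 90-base windows of Tgtp2 occurred base for base in Tgtp1, and 74.0% of those of Tgtp1 occurred in Tgtp2 or Gm12185, so the split of UMIs between Tgtp1 and Tgtp2 is uncertain. For Gbp3 the share was 0.450%, all in Gbp7, and for the other 7 genes it was 0.

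Iigp1 was left out of the promoter search. For the other 9 genes the RefSeq table of GRCm38.p6 held 10 promoters, and the 250 bases before the start of each were searched on both strands. The search was for the letters TTCNNNGAA, the core of a GAS element, and for the core of an ISRE, GAAA followed after any 2 bases by GAAA. All 9 genes held at least 1 ISRE core in a promoter, as do 3.46% of all 27025 genes, and 6 held TTCNNNGAA, as do 8.13%. By promoter the shares of all 32851 were 2.98% and 7.02%, and the second promoter of Gbp3 (chr3:142560106-142560355) held neither motif. Igtp, Irgm2, Tgtp1, Tgtp2, Gbp5 and Gbp7 held both, a combination found in 0.332% of all promoters and in 0.459% of all genes. In Igtp, Irgm2, Tgtp1 and Tgtp2 the GAS letters began 11 bases before the ISRE letters, with no overlap of the motifs. Such matches describe the sequence and were not tested for binding. The 120 bases before the start are shown, 5′ to 3′ on the gene's strand with both motifs in capitals, for the 4 genes that share this arrangement and for Gbp2 and Gbp7, which have the motifs in another order or number. The regions are chr11:58199436-58199555 (plus) for Igtp, chr11:58214857-58214976 (plus) for Irgm2, chr11:48992247-48992366 (minus) for Tgtp1, chr11:49064213-49064332 (minus) for Tgtp2, chr3:142620543-142620662 (plus) for Gbp2 and chr3:142530216-142530335 (plus) for Gbp7.
Igtp: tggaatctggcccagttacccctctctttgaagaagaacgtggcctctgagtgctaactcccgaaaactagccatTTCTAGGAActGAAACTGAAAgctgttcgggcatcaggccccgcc
Irgm2: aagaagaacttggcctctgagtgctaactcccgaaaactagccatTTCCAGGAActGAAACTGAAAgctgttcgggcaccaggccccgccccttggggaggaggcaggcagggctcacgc
Tgtp1: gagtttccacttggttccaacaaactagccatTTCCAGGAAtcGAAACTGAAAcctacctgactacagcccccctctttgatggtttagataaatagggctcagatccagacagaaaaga
Tgtp2: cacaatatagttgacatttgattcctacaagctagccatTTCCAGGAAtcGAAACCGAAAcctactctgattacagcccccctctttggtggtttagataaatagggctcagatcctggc
Gbp2: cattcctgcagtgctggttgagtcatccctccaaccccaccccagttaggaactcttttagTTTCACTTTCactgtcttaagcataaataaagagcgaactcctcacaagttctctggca
Gbp7: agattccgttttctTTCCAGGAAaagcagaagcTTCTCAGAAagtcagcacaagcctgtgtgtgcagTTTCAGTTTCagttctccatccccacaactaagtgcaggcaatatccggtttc

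The WT library held 101808996 UMIs and the CD169-DTR library 84065489. A barcode was taken as a cell from 1000 UMIs upward if no more than 17% of its UMIs were mitochondrial. This left 10107 cells in WT (median depth 7776 UMIs) and 7604 in CD169-DTR (8099.5 UMIs). The libraries shared 21 cell barcodes. Cells were clustered without the interferon-response genes and the 10 GTPases among the variable features, and clusters were named from marker genes, so a class is defined by markers and not by the genes described. Microglia numbered 4812 WT and 5443 CD169-DTR cells, and macrophages 2359 and 703. Other classes were T cells (478 and 218), NK cells (329 and 87), B cells (76 and 124), granulocytes (168 and 195), dendritic cells (326 and 47), plasmacytoid dendritic cells (108 and 11), and 2 myeloid clusters without a name, cluster 5 (670 and 139, led by H2-Aa, H2-Eb1 and Cd74, with as many macrophage as dendritic cell markers) and cluster 19 (93 and 91, led by Ear2, Ace and Adgre4). Endothelial cells (403 and 278) and choroid plexus cells (154 and 173) were also in the sort, with Ptprc, the gene of CD45, at 55.5 and 27.8 counts per 1000000 UMIs (CPM) in endothelial cells against 437 and 342 CPM in macrophages. CPM are UMIs of a gene summed over the cells of a class, per 1000000 UMIs of that class. With 1 library per group no test between WT and CD169-DTR was possible and the spread between mice is unknown. Each interval is at 95% and covers counting error only.

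Across cell classes, endothelial cells had the highest summed level of the 10 genes in both libraries and choroid plexus cells the lowest. In WT the sum was 2159 CPM in endothelial cells, 1618 in granulocytes, 1014 in T cells, 954 in macrophages, 856 in cluster 5, 686 in NK cells, 565 in B cells, 514 in dendritic cells, 502 in microglia, 481 in plasmacytoid dendritic cells, 366 in cluster 19 and 68.3 in choroid plexus cells. The intervals of neighbours in this order overlapped for B cells, dendritic cells, microglia and plasmacytoid dendritic cells, and for no other pair of these 12. The unnamed non-immune cluster 23 (54 and 34 cells, with Vtn and Rgs5 among its leading genes) was left out of the order and had 1104 CPM in WT (998 to 1219), which overlaps T cells, and 957 in CD169-DTR. In CD169-DTR the sum was 1799 CPM in endothelial cells, 537 in T cells, 489 in granulocytes, 372 in macrophages, 362 in cluster 5, 346 in microglia, 301 in NK cells, 258 in dendritic cells, 185 in B cells, 178 in cluster 19 and 62.9 in choroid plexus cells. Plasmacytoid dendritic cells, with 11 cells, were left out of this order. In this library the neighbours from T cells to granulocytes, from macrophages to dendritic cells, and from B cells to cluster 19 had overlapping intervals. Endothelial cells gave 14.6% of the UMIs of the 10 genes in WT with 4.93% of all UMIs, and 18.6% with 4.15% in CD169-DTR. Macrophages gave 26.7% with 20.4% of all UMIs in WT and 11.6% with 12.6% in CD169-DTR, and microglia gave 31.6% with 45.9% in WT and 57.7% with 67.0% in CD169-DTR.

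**Figure D1:**
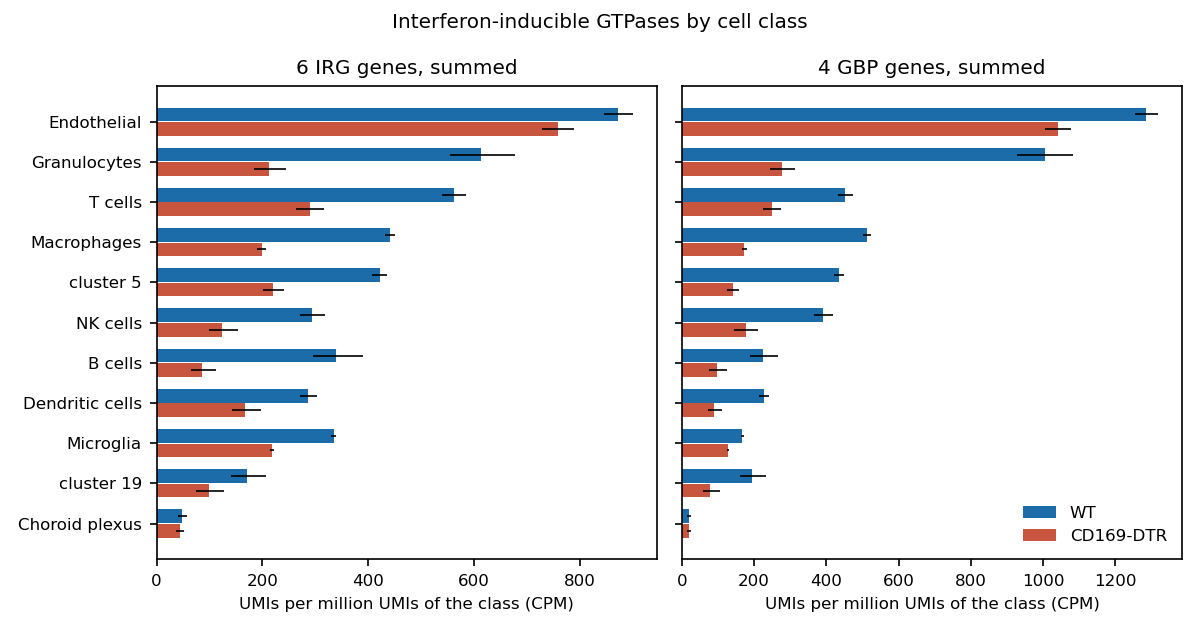
Summed level of the 6 IRG genes (left) and the 4 GBP genes (right) in CPM for each cell class, WT in blue and CD169-DTR in red, 1 library each. Lines are 95% Poisson intervals of the counts. WT was above CD169-DTR in all 11 classes shown, with overlapping intervals in choroid plexus cells.

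The genes differed in which classes held them. Iigp1, an effector IRG that binds parasite vacuoles, was at 357 CPM in WT endothelial cells, 141 in plasmacytoid dendritic cells, 90.7 in T cells and 69.5 in microglia, against 31.1 in macrophages and 4.61 (3 UMIs) in granulocytes. In cluster 19 it had 1.61 CPM (1 UMI) in WT and no UMI in CD169-DTR. Gbp7, a GBP known to bind subunits of the phagocyte oxidase, was at 376 CPM in WT endothelial cells, 226 in T cells and 210 in NK cells, and at 104 in macrophages. Gbp2, which is recruited to parasite vacuoles, was at 497 CPM in WT granulocytes, 362 in endothelial cells and 231 in macrophages, and at 60.2 in microglia. Irgm1, the regulator linked to autophagy, was at 418 CPM in WT granulocytes, 243 in macrophages, 235 in endothelial cells and 134 in microglia. After each cell was thinned to 2000 UMIs, 35.9% of WT macrophages, 50.3% of WT granulocytes and 22.1% of WT microglia had an Irgm1 UMI, and 40.9% of WT endothelial cells had an Iigp1 UMI. In choroid plexus cells, whose median depths were 14550 UMIs in WT and 12530 in CD169-DTR, the share with an Irgm1 UMI was 3.36% and 4.12%. Shallower cells keep more free RNA, that is RNA from outside cells, when thinned, so the share that it alone would give was estimated from the free RNA per droplet at the median depth of each class. For WT it was 3.80% in choroid plexus cells, 7.51% in macrophages (7230 UMIs), 7.20% in microglia (7549 UMIs) and 17.6% in granulocytes (2921.5 UMIs), below the measured share in the last 3. For CD169-DTR it was 1.42% in choroid plexus cells, below the measured 4.12%, and 1.42% in macrophages, where 21.4% had an Irgm1 UMI.

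RNA outside cells carried the same transcripts. In barcodes of 10 to 100 UMIs the 10 genes summed to 696 CPM in WT and 355 CPM in CD169-DTR. From the UMIs of microglial markers in T, NK and B cells, a droplet was estimated to hold 1650 UMIs of such RNA in WT and 837 in CD169-DTR, and with them 1.15 and 0.297 UMIs of the 10 genes. The values below are given without subtraction, and values after subtraction of this profile stand beside them for macrophages and microglia.

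In macrophages, all 10 genes were at least 2-fold higher in WT than in CD169-DTR, where 3.69% of the 11770 genes with at least 20 UMIs were at least 2-fold higher in WT and 1.72% were so in CD169-DTR. The sum of the 10 was 954 CPM in WT (18297 UMIs) and 372 CPM in CD169-DTR (3646 UMIs), a log2 ratio of 1.36 (interval 1.31 to 1.41). The median log2 ratio of the 10 was 1.39, against -0.02 over all genes tested. The 4 GBP genes summed to 513 CPM in WT and 173 in CD169-DTR, a log2 ratio of 1.57 (1.49 to 1.64), and the 6 IRG genes to 441 and 198 CPM, a log2 ratio of 1.15 (1.08 to 1.22). Gbp2 held 4434 of the 9836 WT UMIs of the GBP genes and Irgm1 4652 of the 8461 of the IRG genes, and the single genes of the families overlapped in their ratios.

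Among the regulators, Irgm1 was at 243 CPM in WT macrophages and 117 in CD169-DTR, a log2 ratio of 1.05. Irgm2 was at 29.2 and 14.2 CPM, a log2 ratio of 1.04 with an interval of 0.77 to 1.32. Igtp was at 122 and 52.4 CPM, a log2 ratio of 1.22. These 3 sat close to the 2-fold line. Of the effectors, Iigp1 was at 31.1 CPM in WT and 10.7 in CD169-DTR, a log2 ratio of 1.54. Tgtp2 had 274 UMIs in WT and 32 in CD169-DTR, which are 14.3 and 3.26 CPM and a log2 ratio of 2.13 (1.60 to 2.71), and among macrophages of 5000 to 10000 UMIs its log2 ratio was 1.06. Tgtp1 had 45 and 5 UMIs, which gave a log2 ratio of 2.20 with the wide interval of 0.87 to 3.89, and reads of these 2 copies are hard to assign. The GBP genes lay within the range of the IRG genes. Gbp2 was at 231 CPM in WT and 63.7 in CD169-DTR, a log2 ratio of 1.86 (1.74 to 1.98). Gbp5, which promotes NLRP3 inflammasome assembly, was at 70.6 and 18.4 CPM, a log2 ratio of 1.94 (1.71 to 2.17). Under the 12 alternatives that bear on it, the log2 ratio of Gbp5 ran from 1.33 to 2.09. Gbp3 was at 108 and 47.5 CPM (log2 ratio 1.18), and Gbp7 at 104 and 43.5 CPM (1.25).

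**Figure D2:**
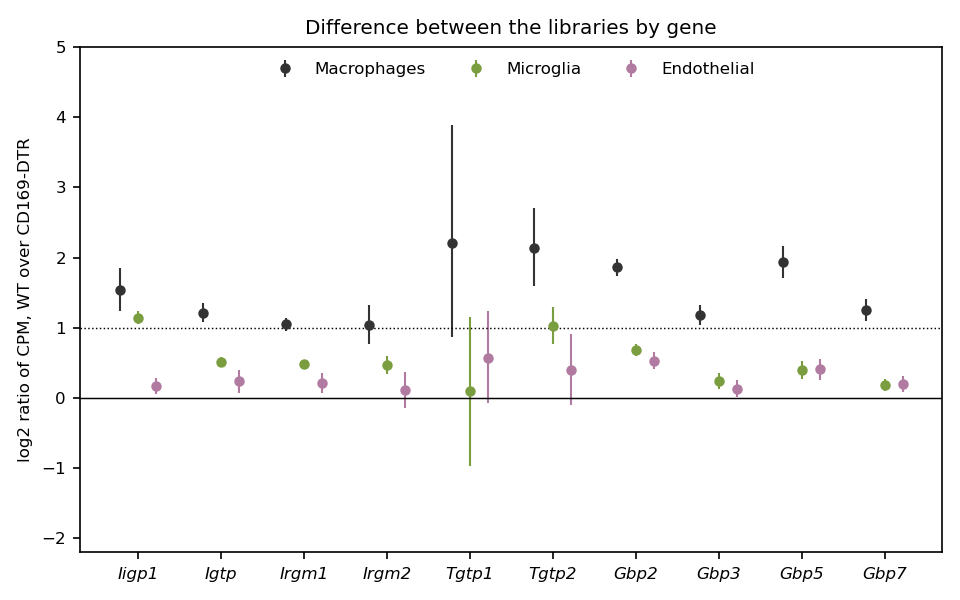
Log2 ratio of CPM, WT over CD169-DTR, for each gene in macrophages, microglia and endothelial cells, with 95% exact conditional intervals. The solid line marks equal levels and the dotted line a 2-fold higher level in WT. All 10 macrophage points lie above the dotted line, 2 microglial points do (Iigp1 and Tgtp2), and no endothelial point does.

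Macrophages of the libraries also differed in depth and content. Their median depth was 7230 UMIs in WT and 12588 in CD169-DTR, and among macrophages of 5000 to 10000 UMIs the log2 ratio of the 10 genes was 1.17. With every cell given the same weight it was 1.12, and with free RNA subtracted it was 1.45. Iigp1, Igtp and Irgm1 were under 2-fold among macrophages of 5000 to 10000 UMIs, with log2 ratios of 0.35, 0.88 and 0.89. With every cell given the same weight Irgm1 (0.89) and Gbp7 (0.98) were, and with every cluster given the same weight Irgm1 was at 0.9964, just under the line. UMIs of NK cell markers in macrophages summed to 15.02 CPM in WT and 1.53 in CD169-DTR over 7 markers, of which Gzma was the most abundant (9.80 and 0.612 CPM), and all 7 had a UMI in WT and 5 in CD169-DTR. Erythroid markers summed to 52.0 and 0.917 CPM over 5 genes, led by Hbb-bs (27.1 and 0.612 CPM), with 4 and 3 detected. Over both libraries, a UMI of Hbb-bs, Hba-a1 or Hba-a2 was in 1.14%, 0.67% and 3% of the cells of macrophage clusters 2, 8 and 15. Endothelial markers summed to 33.3 and 15.6 CPM over 5 genes, led by Flt1 (20.6 and 9.99 CPM), all detected in both. UMIs of 10 T cell markers summed to 13.9 and 4.99 CPM, led by Trbc2 (2.61 and 1.43 CPM), with 10 and 9 of them detected. The macrophage markers themselves summed to 8948 CPM in WT and 5906 in CD169-DTR over 15 genes, led by Plac8 (2943 and 1294 CPM). The part of these differences in the ratios of the GTPases was not tested. The macrophages came from clusters 2, 8 and 15, and in each the 10 genes were higher in WT. Cluster 2, led by Ms4a7, Gpnmb and Lgals3, had 608 CPM in WT and 279 in CD169-DTR (log2 ratio 1.12). Cluster 8, led by Plac8, Lyz2 and S100a4, had 1690 and 676 CPM (1.32), the highest level of the 3 in both libraries. Cluster 15, led by Clec4e, Cxcl2 and Lgals3, had 792 and 350 CPM (1.18).

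In microglia, the difference was smaller and uneven. The 10 genes summed to 502 CPM in WT (21673 UMIs) and 346 CPM in CD169-DTR (18091 UMIs), a log2 ratio of 0.54 (0.51 to 0.56), and the median log2 ratio of the 10 was 0.48 against -0.04 over all genes tested. Iigp1 (69.5 CPM in WT and 31.5 in CD169-DTR, log2 ratio 1.14, interval 1.06 to 1.23) and Tgtp2 (7.69 and 3.77 CPM, log2 ratio 1.03, interval 0.77 to 1.29) were at least 2-fold higher in WT, that is 2 of the 10, where 1.50% of the 13746 genes tested were. Among microglia without a Siglec1 UMI both were just under 2-fold, with log2 ratios of 0.94 and 0.9993, and with the same weight for every cluster they were at 0.97 and 0.91. With free RNA subtracted Tgtp2 was at 0.70, and with at most 10% mitochondrial UMIs at 0.97. Gbp2 was at 60.2 and 37.4 CPM, a log2 ratio of 0.69 (0.60 to 0.77). Igtp, Irgm1 and Irgm2 had log2 ratios of 0.51, 0.48 and 0.47, and Gbp5 one of 0.40. Gbp3 and Gbp7 had log2 ratios of 0.24 (0.13 to 0.36) and 0.18 (0.10 to 0.27), and Tgtp1, with 16 and 18 UMIs, one of 0.11 with an interval on both sides of 0. The order of the family sums was the reverse of that in macrophages, with a log2 ratio of 0.62 (0.58 to 0.65) for the 6 IRG genes and 0.39 (0.34 to 0.44) for the 4 GBP genes. After free RNA was subtracted, the log2 ratio of the 10 genes was 0.41 and that of Iigp1 1.20, while Gbp2, Gbp3 and Gbp7 were at 0.07, -0.17 and 0.04.

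UMIs of macrophage markers in microglia were higher in WT. The 15 macrophage markers summed to 363 CPM in WT microglia and 160 in CD169-DTR microglia, with all 15 detected in both and Ms4a4c the most abundant (118 and 51.4 CPM). NK cell markers in microglia summed to 7.48 and 1.59 CPM, led by Gzma (4.33 and 0.842 CPM), and T cell markers to 7.55 and 2.53 CPM, led by Trbc2 (2.13 and 0.517 CPM). The part of these differences in the microglial ratios was not tested. All 8 microglial clusters had a higher sum of the 10 genes in WT. The log2 ratio was lowest in cluster 16, led by Ccnb2, Stmn1 and Birc5, with 584 CPM in WT and 500 in CD169-DTR (0.22, interval 0.08 to 0.37), and highest in cluster 11, led by Hells, Mcm5 and Uhrf1, with 555 and 340 CPM (0.71, interval 0.59 to 0.82). The level itself was highest in cluster 3, led by Cst7, C1qa and Cd72, in WT (644 CPM) and lowest in cluster 0, led by genes that include P2ry12 and Gpr34, in both libraries (332 and 243 CPM).

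**Figure D3:**
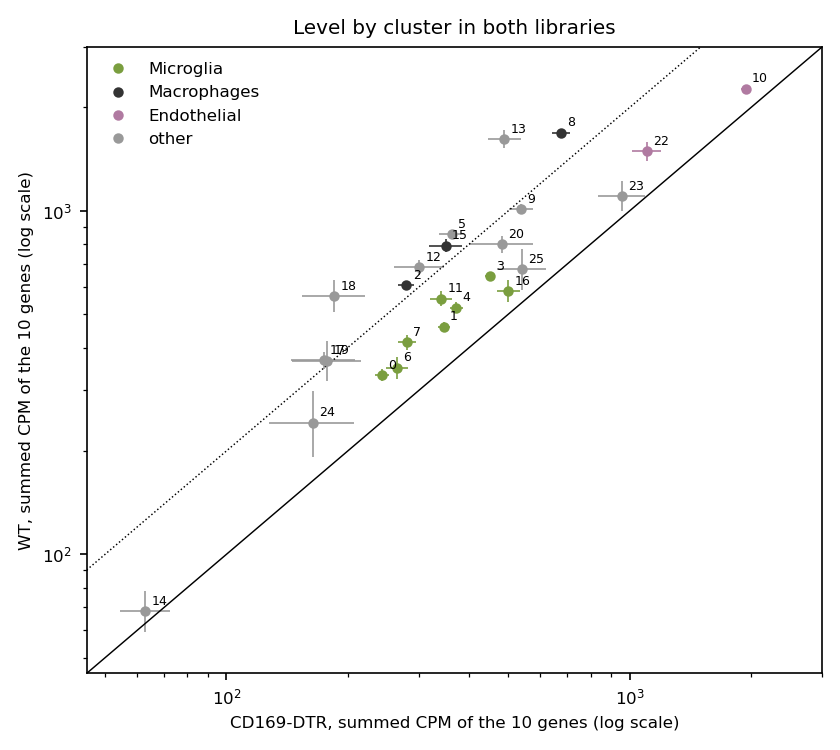
Summed CPM of the 10 genes in each cluster with at least 15 cells in both libraries, CD169-DTR on the x axis and WT on the y axis, both on log scales. Numbers name the clusters, lines are 95% Poisson intervals, the solid line marks equal levels and the dotted line a 2-fold higher level in WT. The macrophage clusters 2, 8 and 15 lie above the dotted line, the microglial and endothelial clusters between the lines.

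In lymphocytes the 10 genes were also higher in WT. T cells had 1014 CPM in WT (4179 UMIs) and 537 in CD169-DTR (868 UMIs), a log2 ratio of 0.92 (0.81 to 1.02), and NK cells 686 CPM (1462 UMIs) and 301 CPM (196 UMIs), a log2 ratio of 1.19 (0.97 to 1.41). In T cells 4 of the 10 genes were at least 2-fold higher in WT, against 6.36% of the 9926 genes tested, and in NK cells 8 of the 9 with at least 20 UMIs were, against 5.11% of 8361. In T cells Igtp was at 243 CPM in WT and 129 in CD169-DTR, a log2 ratio of 0.91, and Gbp7 at 226 and 132 CPM, a log2 ratio of 0.77. In NK cells Gbp7 was at 210 and 103 CPM, a log2 ratio of 1.03, and Iigp1 had 83 and 5 UMIs, a log2 ratio of 2.34 with an interval of 1.06 to 4.00. Tgtp1 had 6 UMIs in WT NK cells and none in CD169-DTR NK cells. B cells, with 339 and 124 UMIs of the 10 genes, had 565 and 185 CPM, a log2 ratio of 1.61 (1.31 to 1.92), with 6 of 7 genes past 2-fold against 6.47% of 6307, and 1 cell held 20.9% of these UMIs in WT and 1 cell 24.2% in CD169-DTR. UMIs of the listed macrophage markers were also higher in WT, at 2056 CPM in WT T cells and 1180 in CD169-DTR T cells over 15 markers. Ly6c2 led this sum (948 and 678 CPM), and Cd163 and Lyve1 were at 0 in both libraries. In B cells they were at 3422 and 895 CPM, led by Plac8 (1969 and 650.3 CPM), with Cd163, Lyve1 and Cbr2 at 0, and in NK cells at 1531 and 781 CPM, led by Plac8 (594 and 279 CPM), with Mrc1 and Lyve1 at 0. Granulocyte markers summed to 101.9 and 29.7 CPM in T cells and to 496 and 285 CPM in NK cells, led by S100a9 in both classes, with Ly6g at 0. NK cell markers in T cells were lower in WT (236 and 477 CPM, led by Gzma with 89.0 and 249 CPM). Much of each macrophage marker sum came from its leading gene, and whether the lymphocytes made these transcripts themselves was not determined. The part of these markers in the ratios was not tested. After free RNA was subtracted, the log2 ratio was 0.96 in T cells and 1.21 in NK cells.

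In granulocytes the sum of the 10 genes was 1618 CPM in WT (1052 UMIs) and 489 CPM in CD169-DTR (455 UMIs), a log2 ratio of 1.73 (1.57 to 1.89). Of the 7 genes with at least 20 UMIs, 7 were at least 2-fold higher in WT, against 4.99% of the 5733 genes tested, led by Gbp3 (160 and 33.3 CPM, log2 ratio 2.26, interval 1.67 to 2.89). Granulocytes of the libraries differed widely in their own markers, since the 7 granulocyte markers summed to 63486 CPM in WT and 124255 in CD169-DTR, led by S100a9 (35446 and 68518 CPM). NK cell markers in granulocytes summed to 106 and 5.38 CPM over 7 genes, led by Gzma (69.2 and 3.23 CPM), with 6 and 3 detected and Klra8 at 0 in both. The part of these differences in the ratios was not tested. Their median depths were 2921.5 and 3632 UMIs, the lowest of the classes.

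Cluster 5 had 856 CPM in WT and 362 in CD169-DTR, a log2 ratio of 1.24 (1.14 to 1.35), with 7 of the 10 genes at least 2-fold higher in WT against 3.85% of 10167 genes tested. Its Gbp2 was at 211 and 44.3 CPM, a log2 ratio of 2.25. Dendritic cells had 514 and 258 CPM, a log2 ratio of 0.99. Of 9 genes, 4 were at least 2-fold higher in WT, against 4.96% of 9099. The other gene, Iigp1, had 106 UMIs in WT and none in CD169-DTR. In CD169-DTR 1 cell held 20.2% of the 238 UMIs of the 10 genes. The class pools cluster 17 (180 and 32 cells, 367 and 174 CPM, log2 ratio 1.07) and cluster 20 (146 and 15 cells, 799 and 482 CPM, 0.73). Macrophage markers in dendritic cells summed to 3022 and 2403 CPM, led by Plac8 (2001 and 1705 CPM). T cell markers summed to 53.2 and 32.5 CPM and granulocyte markers to 13.4 and 28.2 CPM. Cluster 19 had 366 and 178 CPM, a log2 ratio of 1.05, with 4 of 7 genes past 2-fold against 2.80% of 5962. Its erythroid markers summed to 9080 CPM in WT, led by Hbb-bs (5278 CPM), and had no UMI in CD169-DTR. Only 1.63% of its cells over both libraries held a UMI of Hbb-bs, Hba-a1 or Hba-a2, so this sum came from few cells. The macrophage markers of cluster 19 summed to 4961 and 2006 CPM, led by Plac8 (3870 and 1566 CPM). T cell markers in cluster 19 summed to 46.8 and 1.71 CPM, led by Trbc2 (17.8 and 0 CPM). In cluster 5 the T cell markers summed to 56.8 and 8.48 CPM, led by Trbc2 (14.02 and 1.41 CPM), the macrophage markers to 6101 and 3805 CPM, led by Plac8 (2899 and 1687 CPM), and the dendritic cell markers to 937 and 917 CPM, led by Cd209a (529 and 468 CPM). The part of these differences in the ratios was not tested. Plasmacytoid dendritic cells had 481 CPM in WT, and their 11 CD169-DTR cells had only 23 UMIs of the 10 genes. In endothelial cells the 10 genes were at high and similar levels, 2159 CPM in WT (10001 UMIs) and 1799 in CD169-DTR (5820 UMIs), a log2 ratio of 0.26 (0.22 to 0.31). No gene was 2-fold different there, against 2.45% of 11312 genes that were at least 2-fold higher in WT, so this count is near that share. Among the genes with narrow intervals Gbp2 differed most (362 and 249.8 CPM, log2 ratio 0.53). Among endothelial cells of 5000 to 10000 UMIs the log2 ratio of the 10 genes was -0.04. T cell markers summed to 72.3 CPM in WT endothelial cells and 2.47 in CD169-DTR endothelial cells, over 10 markers of which 10 and 4 were detected, led by Trbc2 (13.4 and 0 CPM). NK cell markers summed to 75.1 and 2.16 CPM there, led by Gzma (58.3 and 0.618 CPM), macrophage markers to 324 and 91.2 CPM, led by Plac8 (131 and 8.66 CPM), and granulocyte markers to 19.4 and 135.7 CPM, led by S100a9 (2.59 and 70.2 CPM). Their part in the endothelial ratio was not tested. In choroid plexus cells the sum was 68.3 and 62.9 CPM, a log2 ratio of 0.12 with an interval from -0.17 to 0.41.

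**Figure D4:**
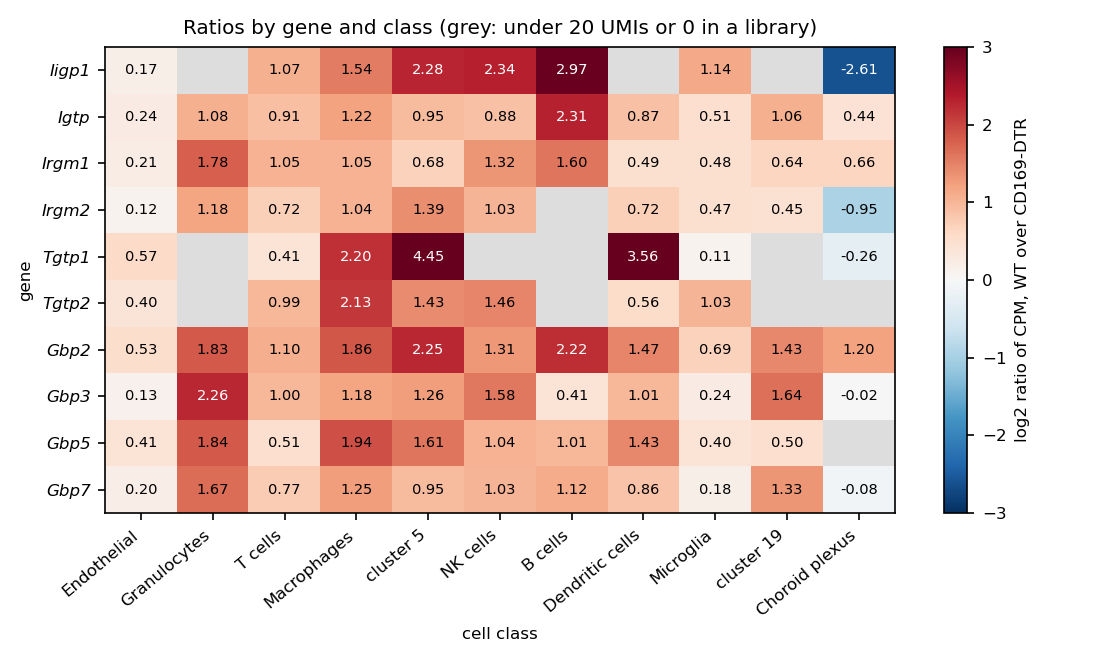
Log2 ratio of CPM, WT over CD169-DTR, for each gene (rows) and cell class (columns, in the order of the WT sum), red for higher in WT and blue for higher in CD169-DTR. Grey cells had under 20 UMIs in both libraries together or none in 1 of them. The values below 0 are all in choroid plexus cells, where the summed level of the 10 genes was the lowest of any class.

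The number of the 10 genes found in each cell was counted. After thinning to 2000 UMIs, the mean number of the 10 genes with a UMI was 1.40 per WT macrophage (2234 cells) and 0.728 per CD169-DTR macrophage (691 cells), and 0.831 per WT microglial cell (4687 cells) and 0.590 per CD169-DTR microglial cell (5351 cells). Cells with at least 3 of the genes were 20.4% of WT macrophages (18.8 to 22.1) and 5.93% of CD169-DTR macrophages (4.29 to 7.96), and 7.34% of WT microglia (6.61 to 8.12) and 3.72% of CD169-DTR microglia (3.23 to 4.26). Free RNA alone was estimated, at the median depth of each class, to give a mean of 0.309 genes per WT and 0.0470 per CD169-DTR macrophage, and 0.297 and 0.0756 per microglial cell, and 3 or more genes in 0.251% of WT macrophages and 0.223% of WT microglia, with lower shares in CD169-DTR. The values depended on the thinning. At 1000 UMIs the mean was 0.779 and 0.413 per macrophage and at 4500 UMIs 2.41 and 1.29, with 3 or more genes in 41.4% and 16.0% of macrophages at 4500 UMIs, and WT was above CD169-DTR at each depth. In microglia the means were 0.441 and 0.321 at 1000 UMIs and 1.60 and 1.14 at 4500 UMIs. At 2000 UMIs, cells with none were 34.3% and 55.3% of macrophages. In choroid plexus cells none of 149 WT and none of 170 CD169-DTR cells had 3 or more, while 50.8% of WT and 39.9% of CD169-DTR endothelial cells did. The cells left out for lower depth were 125 and 12 macrophages and 125 and 92 microglia. In WT macrophages with a Gbp5 UMI, 2.67 of the other 9 genes had a UMI on average, against 1.13 in those without, and for Iigp1 these means were 2.44 and 1.29. In CD169-DTR macrophages the means for Gbp5 were 2.13 and 0.612. In microglia with an Iigp1 UMI they were 1.53 against 0.666 in WT and 1.51 against 0.504 in CD169-DTR. In WT macrophages the tenth of cells with the most UMIs of the 10 genes held 39.7% of them, and in CD169-DTR macrophages 49.4%.

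**Figure D5:**
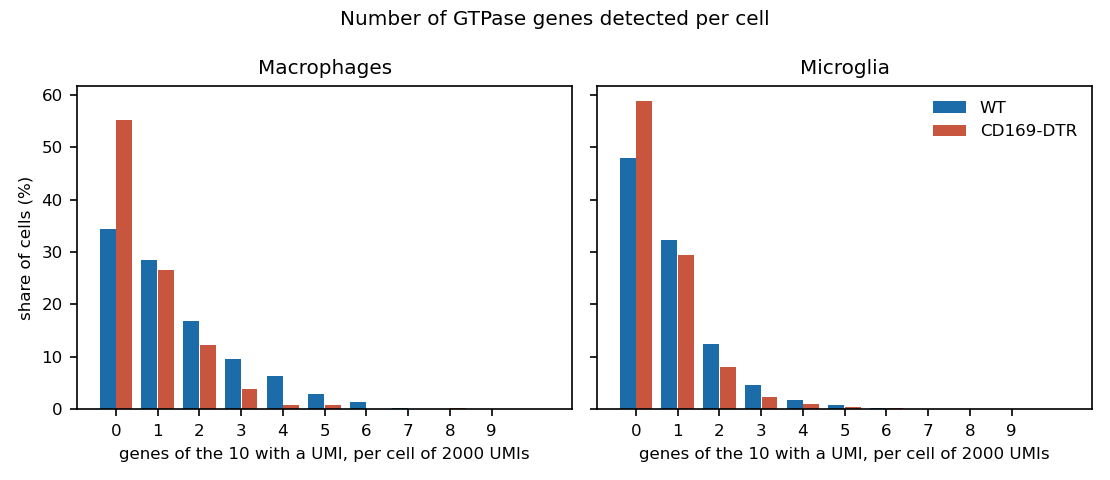
Share of cells (%) by the number of the 10 genes with at least 1 UMI, after each cell was thinned to 2000 UMIs, for macrophages (left) and microglia (right), WT in blue and CD169-DTR in red. In macrophages 34.3% of WT and 55.3% of CD169-DTR cells had none of the genes, and cells with 3 or more were 20.4% and 5.93%.

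Because the toxin acts on cells that express Siglec1, macrophages and microglia were also split by a Siglec1 UMI within each library. Siglec1 was at 39.1 CPM in WT macrophages and 12.9 in CD169-DTR, a log2 ratio of 1.59 (1.32 to 1.88), and at 18.8 and 5.57 CPM in microglia, a log2 ratio of 1.76 (1.56 to 1.96). In WT, the 550 macrophages with a Siglec1 UMI had 945 CPM of the 10 genes and the 1684 without had 977 CPM, a log2 ratio of -0.05 with an interval from -0.15 to 0.05. The families lay on opposite sides of 0, with a log2 ratio of 0.20 (0.06 to 0.34) for the IRG genes and -0.30 (-0.45 to -0.15) for the GBP genes. Iigp1 was at 60.0 CPM with and 30.6 CPM without a Siglec1 UMI, a log2 ratio of 0.97 (0.50 to 1.43), and Gbp2 at 178 and 230 CPM, a log2 ratio of -0.37 (-0.60 to -0.14). In CD169-DTR macrophages thinned to 2000 UMIs the family sums lay on the same side. The log2 ratios were 0.36 (-0.07 to 0.76) for the IRG and 0.31 (-0.13 to 0.74) for the GBP genes. Iigp1 (1 and 22 UMIs) and Gbp2 (21 and 94 UMIs) had log2 ratios of -1.95 and 0.35, and all these intervals lay on both sides of 0. At 4500 UMIs the CD169-DTR families lay on opposite sides, at 0.21 (-0.10 to 0.52) and -0.13 (-0.48 to 0.21), and Gbp2 was at -0.24. The WT families were then at 0.19 and -0.34, so this contrast of the libraries did not hold at 4500 UMIs. In CD169-DTR the 103 macrophages with a Siglec1 UMI had 568 CPM and the 588 without had 450, a log2 ratio of 0.34 (0.03 to 0.63). With cells thinned to 4500 UMIs in place of 2000 this ratio was 0.06 (-0.17 to 0.28), and the WT ratio was -0.09 (-0.17 to -0.01). Their median depths before thinning were 15850 and 12356 UMIs, against 7506 and 7121 in WT. Among macrophages without a Siglec1 UMI the log2 ratio between the libraries was 1.38 for the 10 genes. At this level of Siglec1 many cells that express it may hold no UMI of it, so the split does not set expressing cells apart. In T cells, which should lack the gene (median depths of 6489.5 and 6655 UMIs), 7 of 478 WT and 2 of 218 CD169-DTR cells had a Siglec1 UMI, against 561 of 2359 and 103 of 703 macrophages. In microglia the cells with a Siglec1 UMI had more of the 10 genes in both libraries. In WT the 623 such cells had 719.9 CPM and the 4064 others 472, a log2 ratio of 0.61 (0.50 to 0.71), and in CD169-DTR the 245 such cells had 516 and the 5106 others 335, a log2 ratio of 0.62 (0.43 to 0.81). Median depths were 10932 and 7158 UMIs in WT and 12376.5 and 7690 in CD169-DTR.

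Over all immune cells, the 10 genes summed to 674 CPM in WT and 351 in CD169-DTR, a log2 ratio of 0.94 (0.92 to 0.96), with 5 of the 10 at least 2-fold higher in WT against 5.66% of 15128 genes tested. Macrophages made up 24.98% of WT and 9.95% of CD169-DTR immune cells, and microglia 50.9% and 77.0%. With the share of each class in the UMIs of WT immune cells, not its share of cells, applied to both libraries, the log2 ratio was also 0.94. It was 0.85 for the IRG genes and 1.06 for the GBP genes, against 0.82 and 1.11 with the shares as found. Iigp1, whose level was higher in microglia than in macrophages, was the gene that shifted most among those with over 1000 UMIs in each library, from 1.05 to 1.34.

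Ligands that induce these genes, and cytokines upstream of them, were followed in the classes that held them. Ifng, the gene of IFN-γ, was at 343 CPM in WT NK cells (731 UMIs) and 460 in CD169-DTR NK cells (300 UMIs), and at 168 CPM in WT T cells (691 UMIs) and 341 in CD169-DTR T cells (551 UMIs). A single CD169-DTR T cell held 409 of these 551 UMIs. Without the top cell of each library Ifng was at 150.7 CPM in WT and 88.3 in CD169-DTR T cells, a log2 ratio of 0.77 (0.51 to 1.04) in place of -1.02, and T cells with an Ifng UMI were 26.8% (22.9 to 31.0) and 21.6% (16.3 to 27.6). In NK cells the log2 ratio was -0.42 with all cells and -0.28 without the top cells, and cells with an Ifng UMI were 51.1% and 50.6%. Ifnb1, the gene of IFN-β, was at 27.0 CPM in WT microglia and 33.4 in CD169-DTR microglia, a log2 ratio of -0.31, and at 3.29 and 7.54 CPM in macrophages, where 49.2% of the 63 WT UMIs were in 1 cell. Il27 was at 8.24 and 2.55 CPM in macrophages, a log2 ratio of 1.69, and Il18 at 92.3 and 42.8 CPM, a log2 ratio of 1.11. Of 7 listed ligands and cytokines, 5 had enough UMIs in macrophages. Of these, 2 were at least 2-fold higher in WT and 2 in CD169-DTR, beside 3.69% and 1.72% of all genes tested. Il12b in microglia was at 16.1 and 5.61 CPM, a log2 ratio of 1.52. Il18 and Il12b encode cytokines known to induce IFN-γ rather than the GTPases themselves.

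The receptors Ifngr1, Ifngr2, Ifnar1 and Ifnar2 were close between the libraries. Their log2 ratios ran from -0.30 (Ifngr1) to 0.32 (Ifnar1) in macrophages and from -0.08 to 0.13 in microglia. None of 4 was 2-fold different in either class. This count is near the shares of all genes tested that were at least 2-fold higher in WT, 3.69% in macrophages and 1.50% in microglia. Of 12 signaling genes, 4 were at least 2-fold higher in WT macrophages, beside 3.69% of all genes tested, and none in microglia, beside 1.50%: Stat2 (208 and 103 CPM, log2 ratio 1.01), Irf7 (1592 and 673, 1.24), Socs1 (95.4 and 41.9, 1.19), which inhibits the kinases, and Usp18 (290 and 115, 1.33), which restrains type I IFN signaling. Jak1 was at 91.9 and 96.2 CPM. The median log2 ratio of the 12 was 0.85 in macrophages and 0.16 in microglia.

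Other interferon targets were set beside the GTPases. Of 20 genes known mainly as IFN-γ targets, 18 had enough UMIs in macrophages and 5 were at least 2-fold higher in WT, beside 3.69% of all genes tested, with a median log2 ratio of 0.67. They were Cxcl9 (63.2 and 14.8 CPM, log2 ratio 2.10), Cxcl10 (2170 and 472, 2.20), both chemokines for activated T cells, Cd274 (113 and 49.5, 1.19), the gene of PD-L1, Fgl2 (239 and 101.8, 1.23) and Nos2, which had only 16 and 4 UMIs. 1 WT macrophage held 32.8% of the Cxcl9 UMIs. Of the other 13, Cd74 and H2-Aa each had a log2 ratio of 0.27 and Psmb8 one of 0.41. Of 20 genes known mainly as type I IFN targets, 15 were at least 2-fold higher in WT macrophages, with a median log2 ratio of 1.29, for example Isg15 (2992 and 994 CPM, 1.59), Rsad2 (707 and 228, 1.63) and Ifit3 (1019 and 342, 1.58), while Oas1a was at 70.0 and 64.4 CPM. Irf7, Usp18 and Mx1 stand in more than 1 list. In microglia 4 of 17 IFN-γ targets and 1 of 20 type I IFN targets were at least 2-fold higher in WT, beside 1.50% of all genes tested, with medians of 0.57 and 0.64. The 4 were H2-Aa, H2-Eb1, Cxcl9 and Serpina3g, and the 1 was Oas3 (33.7 and 16.0 CPM, log2 ratio 1.08). In endothelial cells the medians were 0.60 and 0.35, beside 0.23 for the 10 GTPases.

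Further genes of the GTPase families behaved less uniformly. Of 21 listed genes, 17 had a row and 15 had at least 20 UMIs in macrophages with a UMI in each library, and 5 of the 15 were at least 2-fold higher in WT, beside 3.69% of all genes tested, with a median log2 ratio of 0.93. These were Gbp4 (29.6 and 13.96 CPM, 1.08), Gm4951 (12.7 and 5.91, 1.11), Gm12185 (3.75 and 0.612, 2.62), the very large GTPase Gvin1 (8.97 and 3.16, 1.51) and the dynamin-like Mx1 (374 and 112, 1.74). Gbp8 (8.97 and 9.28 CPM) and Irgq (2.71 and 3.98 CPM, log2 ratio -0.55), were not higher in WT. In microglia none of 15 was 2-fold different, where 1.50% of all genes were at least 2-fold higher in WT, so this count is near that share. The median was 0.51, with 14 above 0. Of 15 genes that work with these GTPases at vacuoles, in autophagy conjugation or in inflammasomes, 14 had enough UMIs and none was 2-fold different in macrophages or microglia, with medians of 0.09 and -0.05, and this count too is near the shares of all genes. Casp4, the sensor of bacterial lipopolysaccharide, was highest among them in macrophages (138 and 75.5 CPM, log2 ratio 0.87), and Casp1 was at 82.7 and 55.2 CPM (0.58).

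Over 22 profiles, each a cell class of 1 library with at least 50 cells, the 10 genes outside the GTPase list whose log2(CPM + 1) was most like that of the summed GTPases among 12579 genes were Xaf1, Rnf213, Tmem140, Parp9, Adar, Clec2d, Irf9, Ifi35, Herc6 and Rnf31, with Pearson correlations from 0.90 (Xaf1) to 0.85 (Rnf31). The profiles share libraries and free RNA, so these values only rank likeness. Each GTPase was likewise compared with the sum of the other 9. The correlation was 0.92 for Gbp5, 0.91 for Igtp, 0.89 for Gbp2, 0.88 for Irgm2 and Gbp3, 0.87 for Irgm1 and 0.83 for Gbp7, and lower for Tgtp2 (0.63), Iigp1 (0.60) and Tgtp1 (0.42).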

How the data were processed

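The UMI counts were deposited by the authors as 1 matrix per library, made with Cell Ranger on mm10 (version 3.1.0 in the matrix header), raw and with no cells called. Library preparation used the 3′ kit of 10x Genomics, so UMIs stem from transcript ends. The filter of the study, 200 UMIs and no more than 17% mitochondrial UMIs, leaves 10879 and 7890 barcodes, and here 1000 UMIs were required. Cells were integrated (50 dimensions) and clustered (30 dimensions, resolution 1) with Seurat 5.3.0 in R 4.3.3 after the settings of the study, without 202 listed interferon-response genes and GTPases, 50 of which were among the 2000 default variable features. A cluster took a class name from at least 3 markers with at least 10 UMIs, at 25% or more of the level in the highest cluster and in 5% or more of its cells, and its Ptprc decided whether it was immune. These limits were set after the data were seen, so class shares can differ from those of the study. Doublets were not removed in the main values. In an alternative, the highest 6% of Scrublet scores (scanpy 1.11.5) were left out.

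Levels are CPM with exact Poisson intervals, shares have exact Clopper-Pearson intervals and ratios exact conditional intervals (scipy 1.17.1), all at 95% and for counting error only. Ratios and background shares used genes whose UMIs over both libraries came to 20 or more, with 1 or more in each, and a gene was counted as higher at 2-fold or more. For shares, each cell was thinned to 2000 UMIs. Simulated Poisson counts with 200 genes changed 2-fold were used to check the calculation of the intervals. Such counts follow the model of the intervals, so they do not show how the intervals behave where cells or mice differ. The intervals held the true ratio for 95.4% of 11779 genes in macrophages. The sign was right for 100% of the genes simulated as changed, with an interval that left out 0 for 92.5%. In T cells these shares were 96.0%, 99.0% and 80.4%, and in endothelial cells 95.6%, 99.0% and 90.0%. Genes named are the 10 GTPases, genes of the pathway lists by role and the 10 genes most like the summed GTPases. Some genes of the lists are not reported here by name. The GTPases and lists were chosen with earlier results of these data known. Of 17 alternatives, 3 were chosen after seeing the data.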

Additional observations from a re-analysis of the deposited data

Results flagged for a closer look

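Iigp1 in choroid plexus cells had a log2 ratio of -2.61 for WT over CD169-DTR, while it was higher in WT in 7 other classes that had at least 40 cells in each library, and at least 20 UMIs of it over both libraries with 1 or more in each. It had 4 UMIs in 2 of 154 WT cells and 24 UMIs in 8 of 173 CD169-DTR cells, which are 1.28 and 7.78 CPM, and 1 cell held 33.3% of the 24 UMIs. Granulocyte markers in these cells summed to 10.9 CPM in WT and 164.7 in CD169-DTR, led by S100a9 (0.958 and 90.8 CPM), B cell markers to 11.8 and 43.8 CPM, led by Ighm (7.02 and 24.97 CPM), and T cell markers to 7.02 and 27.2 CPM, led by Trbc2 (2.23 and 12.6 CPM). Their part in the Iigp1 ratio was not tested. The difference between the classes was not tested.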

How the results depend on the processing

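With 1 library per group, leaving out a replicate was not possible, and no paired analysis was possible because the groups share no replicates. The log2 ratio of the 10 genes was above 0 in macrophages and microglia under the 12 alternatives that bear on it, and in T cells and NK cells under 11. In macrophages (1.36) it was 1.17 in cells of 5000 to 10000 UMIs, 1.12 with equal weight per cell, 1.24 with the same weight for every cluster and 1.45 with free RNA subtracted. In microglia (0.54) it was 0.59 in cells of 5000 to 10000 UMIs, 0.48 in cells without a Siglec1 UMI, 0.58 with median-ratio scaling, 0.47 with the same weight for every cluster and 0.41 with free RNA subtracted. In T cells (0.92) it was 1.08 without the highest doublet scores, 1.21 in cells of 5000 to 10000 UMIs and 1.20 with equal weight per cell. In NK cells it ran from 1.17 to 1.28. In endothelial cells (0.26) it was 0.12 without the highest doublet scores, 0.21 with equal weight per cell and 0.33 with free RNA subtracted, and it turned to -0.039 in cells of 5000 to 10000 UMIs. Gbp3 in microglia turned to -0.17 with free RNA subtracted, and Ifng in T cells turned to 0.77 without the cell with the most Ifng UMIs in each library. Tgtp1 in microglia was at -2.26 in cells of 5000 to 10000 UMIs, and had no value after subtraction of free RNA, which left a level at or below 0. The causes were not tested. Macrophage depth differed between the libraries (medians of 7230 and 12588 UMIs), and Tgtp1, with 16 and 18 UMIs in microglia, had wide intervals.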
